A study of Mus musculus with 75 samples.

Results

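The peaks of open chromatin in mouse skin fibroblasts at passage 3 (P3) were compared with those at passage 1 (P1). Members were all peaks deposited for the 4 P1 and 3 P3 ATAC-seq samples, 7 of the 75 samples of the series and 7 of its 13 ATAC-seq samples. List rows with the same start and end, which are several summits of 1 peak, were merged to 1 peak, and peaks that overlapped between samples were joined to 242418 regions. The cells of both passages were untreated primary skin fibroblasts of the C57BL/6 strain. They came from female mice aged 2 months and were split 1 to 3 at each passage, so the groups compared differ by their passage number, and no agent or allele was added. The series follows such cells to P5 and P7, with RNA-seq and DNA methylation as well. For the ATAC-seq and RNA-seq samples, neither labels nor methods say whether replicates came from separate animals or cultures, though the methylation samples are described as independent series, so p-values measure the spread between these samples, which may be technical. A sample is a mixture of all cells in the dish, and fewer cells of a type cannot be told apart from less accessible chromatin per cell.

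In ATAC-seq, the Tn5 transposase cuts and tags DNA where nucleosomes leave it exposed, and pile-ups of cut sites mark promoters, enhancers and insulators. Fibroblast enhancers are known for motifs of AP-1, the FOS and JUN dimers that respond to serum and stress, and of TEAD, the DNA-binding partners of YAP and TAZ that respond to stiff substrates and spreading. CTCF binds insulators and loop anchors, and MyoD-type E-boxes mark muscle enhancers.

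The sequences below are shown because the TEAD, CTCF and E-box motifs were spread unevenly over the regions that changed between P1 and P3. Each is the summit and 100 bases on each side in a region that changed by a large amount, read 5′ to 3′ on the plus strand of GRCm38 (mm10). Capitals mark the motif, GGAATG for TEAD, the core motif of CTCF, and CAGCTG for the E-box, or the reverse complement of each. Among the 221966 distal regions with a summit, meaning regions outside promoters, 19.8% held the TEAD motif on either strand within this window, 2.41% the CTCF motif and 15.1% the E-box. The first 2 sequences gained rank at P3 and hold TEAD motifs.
Rubcnl region, chr14:75001497-75001697, intergenic: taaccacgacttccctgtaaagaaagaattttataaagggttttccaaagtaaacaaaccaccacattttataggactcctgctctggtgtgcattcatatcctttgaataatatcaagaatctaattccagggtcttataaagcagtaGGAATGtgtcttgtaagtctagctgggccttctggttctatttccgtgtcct
Slc4a3 region, chr1:75781534-75781734, intergenic: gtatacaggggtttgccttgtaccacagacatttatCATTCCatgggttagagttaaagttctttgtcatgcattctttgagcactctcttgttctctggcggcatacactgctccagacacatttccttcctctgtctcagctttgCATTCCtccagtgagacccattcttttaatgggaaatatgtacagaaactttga
The next lies in a peak that was present in every P3 sample and absent at P1, and also holds a TEAD motif.
4933412E24Rik region, chr15:60014258-60014458, intergenic: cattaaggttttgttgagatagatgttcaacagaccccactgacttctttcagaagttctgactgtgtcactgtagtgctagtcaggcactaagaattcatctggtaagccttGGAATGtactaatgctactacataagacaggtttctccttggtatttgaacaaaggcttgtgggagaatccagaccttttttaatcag
The last 3 lost rank at P3, with CTCF motifs in the first and second and an E-box in the third. The third also holds an AP-1 motif, which is not marked.
Phactr3 region, chr2:178264497-178264697, intron: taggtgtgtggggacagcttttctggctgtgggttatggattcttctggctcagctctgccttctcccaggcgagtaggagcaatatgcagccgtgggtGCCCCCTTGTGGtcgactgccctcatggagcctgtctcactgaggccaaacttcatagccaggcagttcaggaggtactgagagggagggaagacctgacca
Cts8 region, chr13:61241634-61241834, intergenic: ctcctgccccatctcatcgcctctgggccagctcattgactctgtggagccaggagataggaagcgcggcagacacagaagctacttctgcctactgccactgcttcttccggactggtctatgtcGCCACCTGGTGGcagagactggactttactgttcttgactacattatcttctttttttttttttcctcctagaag
Iftap region, chr2:100199745-100199945, intergenic: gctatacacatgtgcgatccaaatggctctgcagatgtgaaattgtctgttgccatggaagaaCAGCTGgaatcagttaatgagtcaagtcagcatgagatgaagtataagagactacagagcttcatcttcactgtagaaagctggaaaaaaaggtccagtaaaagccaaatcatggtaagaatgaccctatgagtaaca
A region is named here after the gene with the nearest transcription start site, which is a label and not evidence that the gene is its target. The Iftap region, for example, lies 1420840 bases from that start site.

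Fewer peaks were called at P3 than at P1. The P1 samples held 176606, 171974, 186562 and 168982 peaks, and the P3 samples 155681, 142384 and 155266. Every P3 sample lay below every P1 sample, with means of 151110 ± 7560 (SD, n = 3) and 176031 ± 7689 (SD, n = 4), a ratio of 0.858. An exact permutation test gave a two-sided p = 0.0286, the smallest that the 35 splits of these samples allow. The peaks covered 95.7, 88.5, 95.9 and 93.0 Mb at P1 and 76.4, 83.7 and 80.1 Mb at P3, again without overlap (exact permutation p = 0.0286). Taking the 142384 top-ranked peaks of each sample instead, the covered length at P3 differed by -6.07 Mb (exact permutation p = 0.143). Replicate 2 of P3 stood apart from its group, with the fewest and widest peaks and 1.47 summits per peak against 1.31 and 1.35 in the other P3 samples.

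The depth of the libraries moved with this difference. The deposited fold enrichments and p-values of the summits could be solved for whole numbers of reads, which also gave the genome-wide background that the peak caller used, a quantity that scales with the number of reads. This background was 8.71, 7.23, 8.13 and 8.39 extended reads per base at P1 and 4.79, 4.03 and 6.32 at P3. The P3 samples were thus all shallower than the P1 samples (exact permutation p = 0.0286), and passage and depth cannot be told apart within these 7 samples. Replicate 2 of P7, with a background of 5.38, held 231558 peaks, and the P5 and P7 samples with backgrounds from 5.38 to 7.40 held 182402 to 231558. After the pileups of every sample were scaled down to the shallowest, which changes expected values but adds no sampling noise, means of 172122 peaks at P1 and 150527 at P3 remained past the threshold of the caller (exact permutation p = 0.0286).

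**Figure D1:**
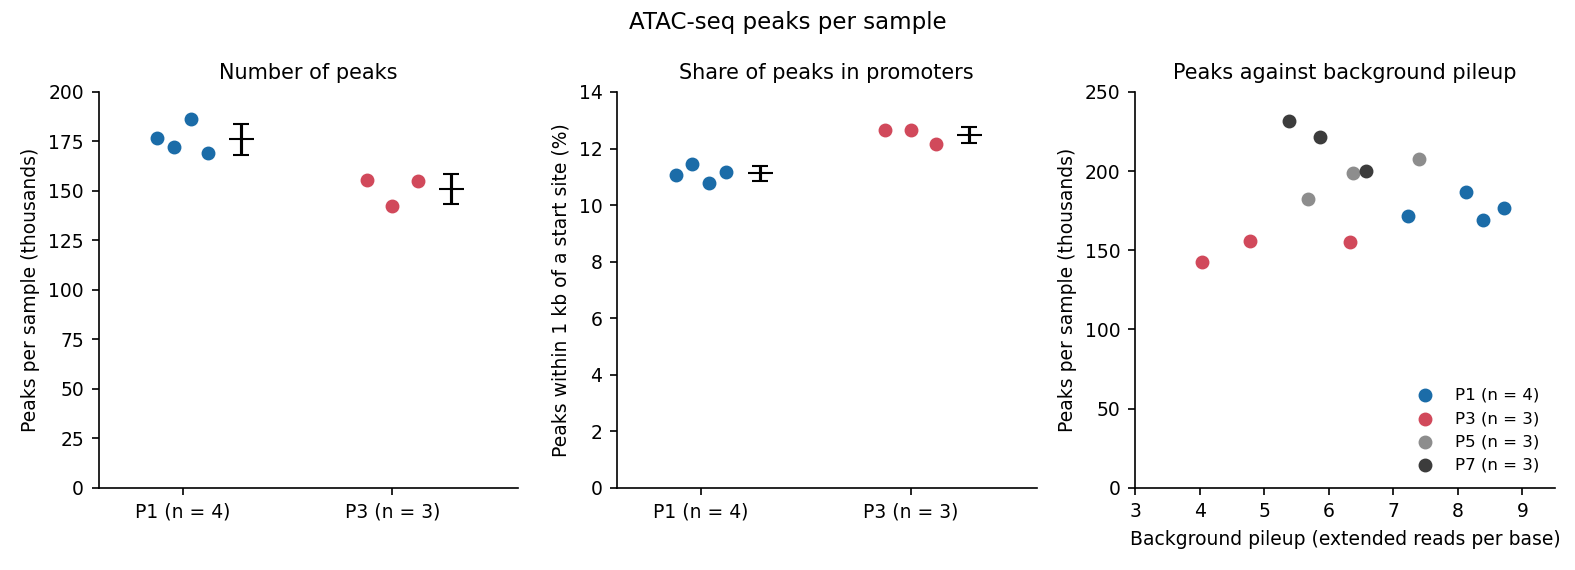
Peaks per sample (left) and percent of peaks within 1 kb of a transcription start site (middle) for the P1 and P3 samples, with bars for mean ± SD, and peaks per sample against the background pileup in extended reads per base for all 13 ATAC-seq samples (right). The P3 samples lie below the P1 samples in peak number, above them in promoter share, and to the left of them in background, and the P5 and P7 samples hold 182402 to 231558 peaks.

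Peaks in promoters, within 1000 bases of an annotated start site, made up a larger share of the smaller P3 lists. The share was 11.1, 11.5, 10.8 and 11.2% at P1 and 12.6, 12.7 and 12.2% at P3. The groups did not overlap, with means of 11.1 ± 0.276% and 12.5 ± 0.286% (exact permutation p = 0.0286). With the lists cut to equal numbers of top-ranked peaks, the difference shrank to 0.433 percentage points (exact permutation p = 0.0571). Median peak width was 397, 388, 379 and 411 bases at P1 and 375, 482 and 393 at P3, so that the groups overlapped (exact permutation p = 0.629). The mean was higher at P3 by 22.9 bases, but lower by 9.75 bases without replicate 2 of P3 and lower by 35.5 bases with equal numbers of top-ranked peaks.

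Of the 150537 peaks found in more than 60% of P1 replicates, 15685 (10.4%) had no overlapping peak in any P3 sample and are called lost. Of the 138615 such consensus peaks of P3, 5624 (4.06%) had no peak in any P1 sample and are called gained. A consensus needs 3 of 4 samples at P1 but 2 of 3 at P3, and a lost peak must be missing from 3 samples but a gained peak from 4. Leaving out 1 P1 replicate makes the rules alike, and then 20344 to 23872 peaks were lost and 6796 to 6976 gained. Among single replicates left out, replicates 2 and 4 of P1 moved the count of lost peaks most, to 23872 and 23571. The count of gained peaks fell to 2889, 3439 and 2825 without replicates 1, 2 and 3 of P3. Equal numbers of top-ranked peaks in each sample gave 8711 lost and 9286 gained peaks. This cut removes the difference in peak number by design and keeps the unlike rules for the 2 passages. It therefore cannot decide whether losses exceed gains. With pileups scaled to the shallowest sample the counts were 14829 lost and 5952 gained.

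The lost peaks were mostly weak ones. Strength is given here as the summit pileup over the genome background of the sample, averaged over the samples with a peak. Among P1 consensus peaks under 3 times the background 41.1% were lost, among those from 3 to 4 times 30.8%, and among those of 10 times or more 0.368%, which is 196 of 53220. Gained peaks ran in parallel, with 24.0% of P3 consensus peaks under 3 times the background and 0.349%, or 187 of 53557, at 10 times or more. A lost peak had a median strength of 3.74 times the background and a gained peak 3.95 times, against 10.6 for the regions that had a peak in all 7 samples.

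Lost peaks lay farther from start sites than shared regions. Promoters held 478 of them (3.05%), against 15.3% of the 98342 regions shared by all 7 samples, and 56.1% were intergenic. The median distance to the nearest start site was 51920 bases for lost peaks, 27962.5 for gained peaks and 23990 for shared regions. Gained peaks had 52.8% in introns and 2.65% (149) in promoters. Position and strength go together in these lists, and their separate shares were not tested.

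**Figure D2:**
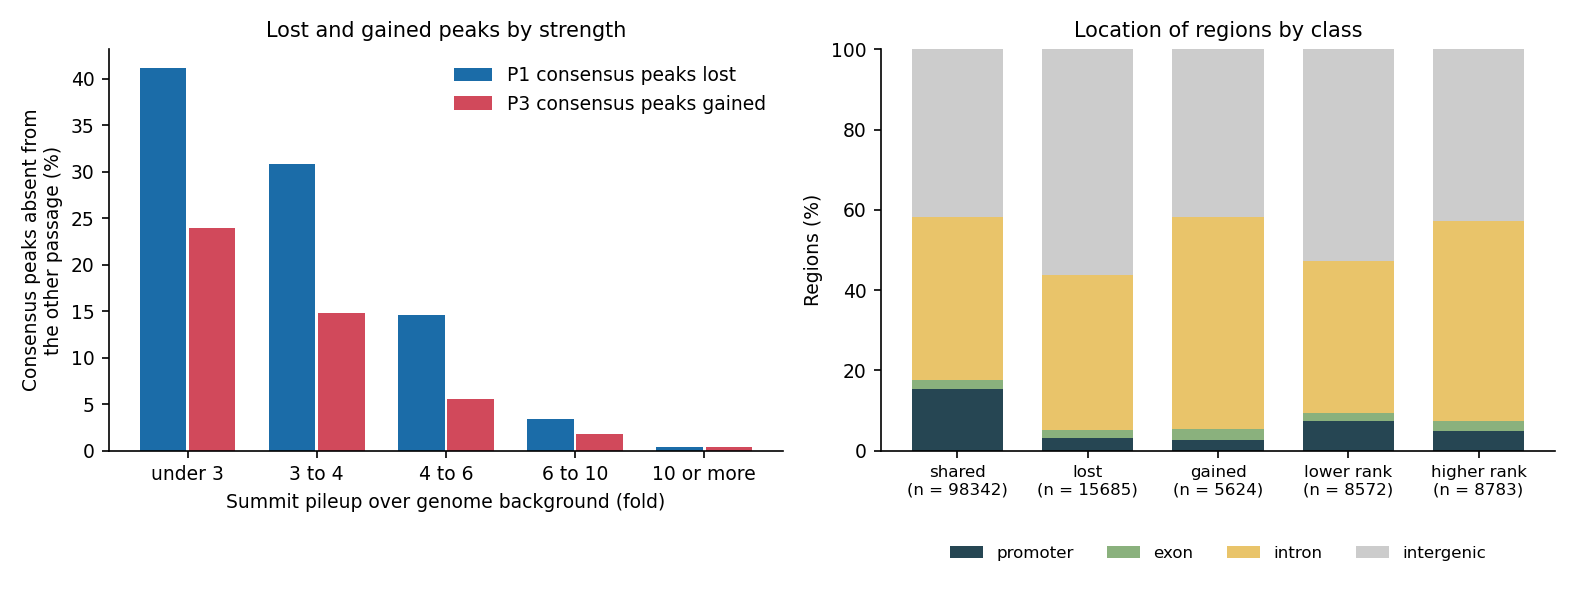
Percent of consensus peaks absent from every sample of the other passage, by summit pileup over the genome background (left), and percent of regions in promoters, exons, introns and between genes for each class (right). Losses exceed gains in every bin, reach 41.1% in the weakest and are 0.368% in the strongest, and shared regions have 15.3% in promoters against 3.05% of lost peaks.

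Many lost peaks had a peak again at P5 or P7, though less often than regions in general. A peak was present again in 2 or more samples of both P5 and P7 for 6015 of the 15685 lost peaks (38.3%), of P5 alone for 1467 (9.35%), of P7 alone for 2547 (16.2%), and of neither for 5656 (36.1%). In all, 7482 lost peaks (47.7%) were found in 2 or more P5 samples, and 54.6% in 2 or more P7 samples. Of all regions, 70.3% were found in 2 or more P5 samples and 72.4% in 2 or more P7 samples. These include the 98342 shared regions, of which 99.7 and 99.3% were found in this way. Lost peaks were not set against regions that were neither shared nor lost. The P5 and P7 samples held 182402 to 231558 peaks, more than any P3 sample. The part of depth in these returns was not tested. Of the gained peaks, 3745 (66.6%) were kept at both later passages and 836 (14.9%) at neither.

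The 6 strongest peaks with complete loss differed in shape. The 5 highest-ranked, near Gpr75, Nrp1, Fstl1, Arhgap20 and Maml3, were only slightly wider than the 200 bases to which the caller extends each read. The Gpr75 region (chr11:30888202-30888419), in an intron, had 15.95, 19.4, 94.0 and 36.5 times the background at P1, no peak at P3, 15.1, 9.06 and 11.6 times at P5 and none at P7. Its P1 values were uneven, with replicate 3 highest, as was also the case for Nrp1, a co-receptor of semaphorins and VEGF, where replicate 3 had 40.7 times the background and the other P1 samples 12.9 to 20.9. Of all lost peaks, 75 had at most 250 bases and at least 10 times the background, as did 61 gained peaks and 37 of the 98342 shared regions. The sixth, near Trabd2b, which encodes a membrane protease that acts on Wnt proteins, was of ordinary shape (chr4:114298322-114298967, 107757 bases from the start site). It had 12.5, 14.7, 16.5 and 12.6 times the background at P1, no peak at P3 and 9.43, 12.5 and 13.6 times at P7. Trabd2b RNA was lower at P3 by a log2 fold change of -1.19 (SE 0.21, edgeR adjusted p = 0.000244), while that of Nrp1 had one of 0.77 (SE 0.11, adjusted p = 2.68e-05) and that of Fstl1 one of 0.50 (SE 0.07, adjusted p = 2.19e-05).

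Promoter peaks lost from every sample included those of Slc39a11, a zinc transporter, Galnt9, an enzyme of O-glycosylation, Bola3, an iron-sulfur cluster factor, and Myadm, a membrane protein. The Slc39a11 region (chr11:113651007-113651611) had 11.4, 9.41, 14.5 and 15.6 times the background at P1 and no peak in any P3, P5 or P7 sample. The Bola3 region (chr6:83347808-83348281) had 9.64, 8.86, 10.2 and 8.59 times at P1, none at P3, and was back in every P5 and P7 sample at 5.64 to 10.99 times. The Slc39a11 and Bola3 regions lay 915 and 866 bases from the start site, near the edge of the promoter window. Slc39a11 and Bola3 RNA had log2 fold changes of 0.24 (SE 0.12) and 0.10 (SE 0.12), neither past the threshold of edgeR.

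The strongest gained peak lay near Per1, a repressor of the circadian clock, at chr11:69097545-69097788. It had 38.2, 41.4 and 32.9 times the background at P3 and no peak at P1, though it too was narrow and was missing from 1 of 3 P5 and 2 of 3 P7 samples. A gained peak in an intron of Trak1, an adaptor of mitochondrial transport, had 24.0, 16.9 and 18.3 times at P3 and 20.3 to 38.5 times in every P5 and P7 sample. One near Epas1, which encodes the hypoxia factor HIF-2α, had 8.36, 9.42 and 9.49 times at P3 and 10.9 to 15.5 times later. The gained region near 4933412E24Rik, whose summit sequence with a TEAD motif is shown above, had 6.69, 9.17 and 10.8 times at P3 and 8.11 to 27.5 times later. In promoters, the peak of Etv4, an ETS factor, had 16.7, 12.6 and 12.3 times at P3, and that of Nr6a1, an orphan nuclear receptor, 5.22, 6.69 and 5.06 times. RNA of Per1, Trak1, Epas1, Etv4 and Nr6a1 did not pass the threshold, with log2 fold changes from -0.16 to 0.20.

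The 98342 regions with a peak in all 7 samples were ranked within each sample by the deposited -log10 p, as percentiles from 0 to 100 among these regions. Mean percentiles at P1 and P3 had a Pearson correlation of 0.872 across regions, which are not independent replicates. Between samples it was 0.922 to 0.941 within P1, 0.892 to 0.922 within P3 and 0.780 to 0.846 between the passages. By limma, 8572 regions (8.72%) had a lower rank at P3 and 8783 (8.93%) a higher one, with an adjusted p under 0.05 and at least 10 percentile points. The percentiles of P1 and P3 did not overlap in 29868 regions (30.4%), which include 8151 of the lower and 8386 of the higher regions. The median change was -24.9 points in the former and 24.9 in the latter, or -0.77 and 0.81 on the log2 scale of pileup over background. The even split is partly set by the measure, because percentiles among a fixed set of regions must balance. Ranked among all peaks of a sample, whose number was lower at P3, 13303 of the shared regions were lower and 3704 higher. On the log2 summit pileup over the background, 8349 were lower and 10312 higher.

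**Figure D3:**
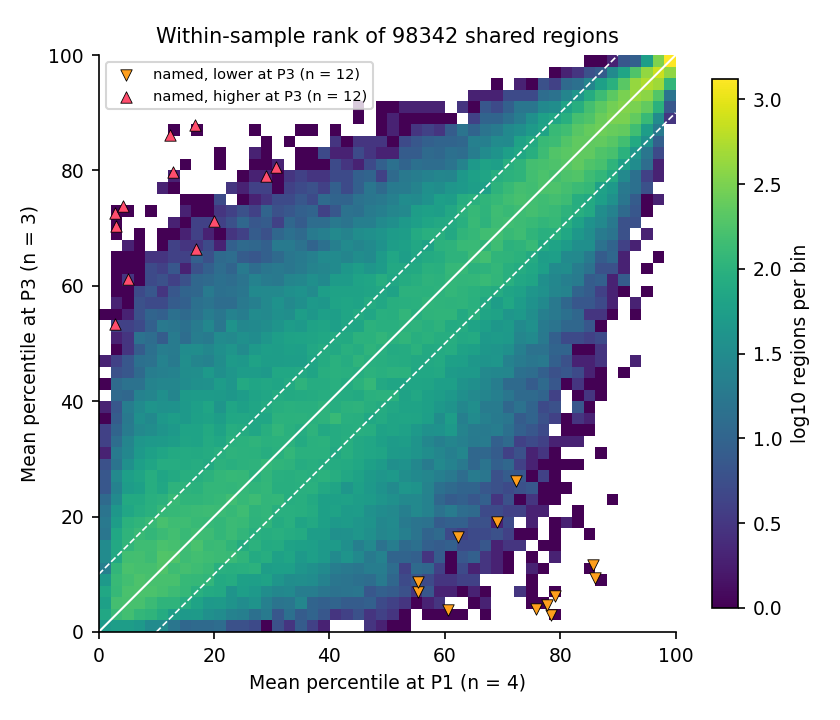
Mean within-sample percentile of the 98342 shared regions at P1 (horizontal) and P3 (vertical), with colour for the log10 number of regions per bin, a solid line of equality and dashed lines at 10 points from it. Most regions lie along the line (Pearson correlation 0.872), and the named regions, triangles, lie at the edges because they were chosen for the largest differences.

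Fewer regions changed rank in promoters than elsewhere. Of 15084 shared promoter regions, 639 (4.24%) were lower and 440 (2.92%) higher. A call needs 10 points, and percentiles leave little room for this at the top of the scale. All regions in the bin centred on 99 at P1 were in bins centred on 89 or higher at P3. The part of this limit in the promoter shares was not tested. The lower regions were 52.7% intergenic, and the higher ones 49.7% intronic. By chromosome, the share of shared regions that were higher ranged among autosomes from 7.48% on chromosome 7 to 10.4% on chromosome 11, which also had the lowest shares of lower regions (6.19%) and of lost peaks (5.24% of its regions), with a median log2 pileup difference of 0.149 against a median of 0.05 over all shared regions.

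The regions with the largest falls were at high percentiles in all P1 samples and near the bottom at P3. The Iftap region printed above was at percentiles 84.8, 87.6, 93.1 and 78.5 at P1 and 4.07, 22.0 and 1.96 at P3. In pileup over background these were 19.1, 22.8, 27.3 and 16.8 against 3.76, 5.21 and 3.00, with no overlap, and the change of -76.7 points (SE 7.01) had a limma adjusted p = 0.000196. An intronic region of Elmo1, an activator of Rac in engulfment and migration, fell from 72.3, 79.8, 87.2 and 64.0 to 0.773, 6.81 and 4.59 (-71.7 points, SE 7.23, limma adjusted p = 0.000236). Elmo1 RNA was also lower, by a log2 fold change of -1.34 (SE 0.18, edgeR adjusted p = 1.35e-05). Regions near Gm29154, Sel1l, Tmem64 and Gm12111 fell by 72.8 to 75.5 points, while RNA of Sel1l, a factor of protein quality control in the endoplasmic reticulum, and of Tmem64 had positive log2 fold changes of 0.34 and 0.48.

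Among promoters, the largest falls were at D030045P18Rik, Lmo3, a LIM-domain cofactor, Cngb3, a channel subunit of cone photoreceptors, Adarb2, Klra2, a receptor of natural killer cells, and Cyp2f2, a cytochrome P450. The Cyp2f2 promoter (chr7:27117647-27119152) was at percentiles 66.2, 60.3, 77.4 and 45.3 at P1 and 15.2, 24.6 and 9.61 at P3 (-45.8 points, SE 8.18, limma adjusted p = 0.00253). Cyp2f2 RNA had a log2 fold change of -3.17 (SE 0.32, edgeR adjusted p = 4.44e-07), and D030045P18Rik RNA one of -1.04 (SE 0.37, adjusted p = 0.0381). The other 4 genes of this group were not among the 13442 genes with enough RNA-seq counts for the test. At Cngb3 and Klra2 the later passages did not stay low, with 10.1 to 21.8 and 8.64 to 26.0 times the background over the P5 and P7 samples, against 3.47 to 4.60 and 3.97 to 8.22 times at P3.

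The largest rises were of the same size. A region in an intron of Parm1, which encodes a mucin-like membrane protein, was at percentiles 3.81, 6.42, 9.91 and 29.2 at P1 and 77.6, 91.1 and 89.5 at P3. It rose by 73.7 points (SE 7.78, limma adjusted p = 0.000274) and stayed between 24.1 and 51.7 times the background at P5 and P7, against 19.4 to 27.7 times at P3. Parm1 RNA rose too, by a log2 fold change of 1.27 (SE 0.22, edgeR adjusted p = 0.000165). Next came a region in an intron of Bag1, a co-chaperone of HSP70 (71.1 points), the Rubcnl region printed above (69.7 points) and an intronic region of Sema4d, a semaphorin (69.6 points). The Rubcnl region had 3.44, 4.84, 4.31 and 4.05 times the background at P1 and 25.3, 19.6 and 21.7 times at P3, without overlap. RNA of Rubcnl, an autophagy factor, and Sema4d did not pass the threshold, at log2 fold changes of 0.60 (SE 0.48) and -0.36 (SE 0.28).

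In promoters the largest rises were at Pxk, Il2rb, Gm11961, Cpa4, Nrf1 and C1qtnf1. The promoter of Nrf1, a regulator of respiratory genes, was at percentiles 22.7, 42.7, 22.6 and 35.1 at P1 and 80.9, 83.2 and 77.8 at P3 (49.9 points, SE 6.94, limma adjusted p = 0.000796). Nrf1 RNA had a log2 fold change of -0.02 (SE 0.09). The promoter of Cpa4, a carboxypeptidase, rose by 50.1 points and had 24.0 to 55.8 times the background at P5 and P7, against 4.70 to 7.75 times at P1. Cpa4 RNA did not pass the threshold at P3 (log2 fold change -0.23, SE 0.60).

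**Figure D4:**
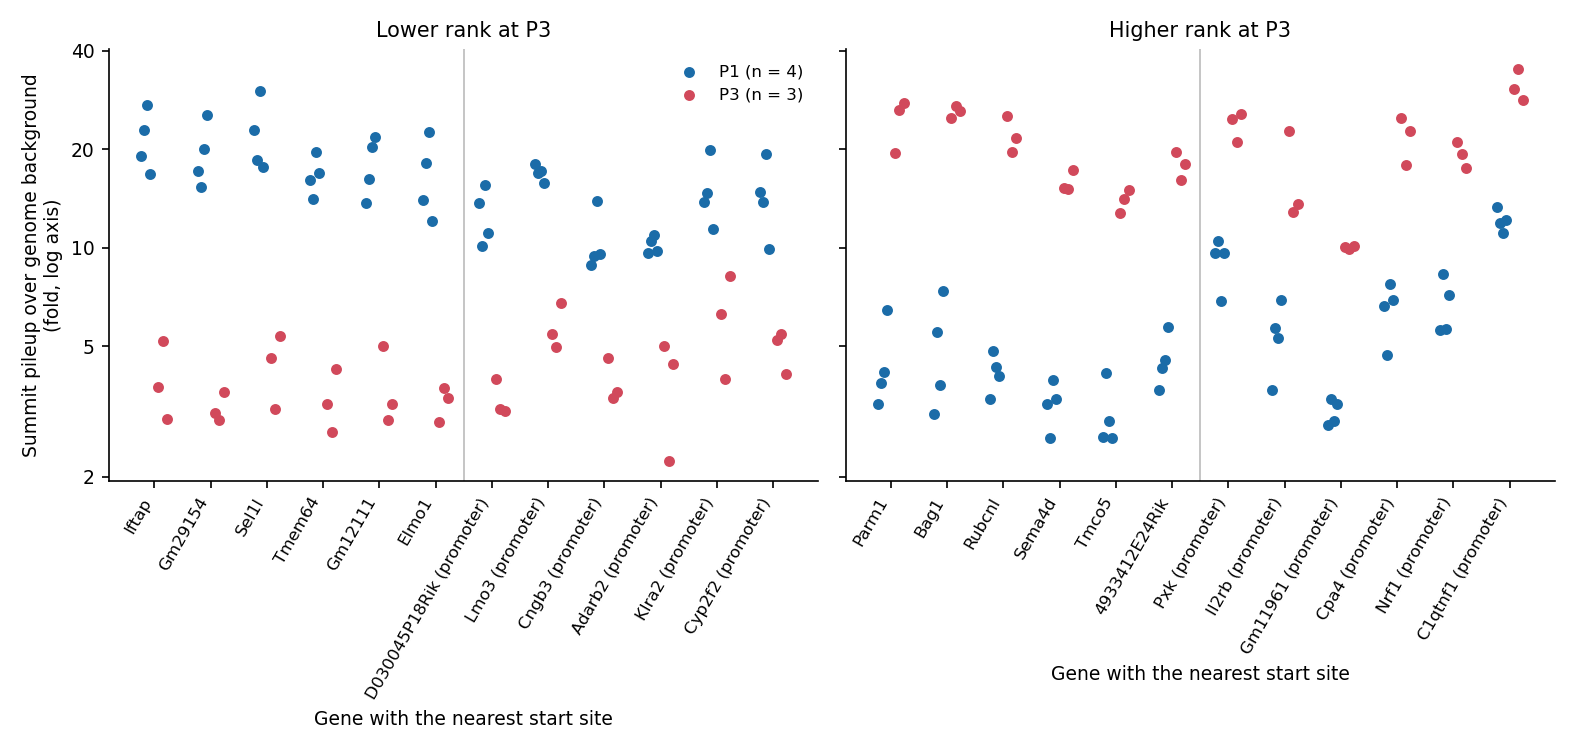
Summit pileup over the genome background (log axis) in each P1 and P3 sample for the 12 named regions of lower rank (left) and the 12 of higher rank (right), with the 6 promoters of each kind to the right of the grey line. Within every region the P1 and P3 points do not overlap, as the choice of regions required, and the Iftap region spans 16.8 to 27.3 at P1 and 3.00 to 5.21 at P3.

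Widths moved less than ranks. Of the shared regions, 1394 (1.42%) were narrower at P3 and 294 (0.299%) wider by at least 1.5-fold with a limma adjusted p under 0.05. The narrower regions had a median rank change of -20.7 points and the wider ones of 25.5 points. The median width of shared regions was 644, 605, 633 and 641 bases at P1 and 545, 644 and 572 at P3, with overlap between the groups (exact permutation p = 0.257). These counts rested on single samples. Without replicate 2 of P3 the narrower regions numbered 2537, and without P1 replicates 1, 2, 3 and 4 they numbered 294, 739, 216 and 395. The wider ones numbered 77, 158, 44 and 97 without those P1 replicates and 195 without replicate 3 of P3, and without replicate 1 of P3 the narrower ones numbered 867. Centring the widths of each sample gave 931 narrower and 474 wider regions.

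The motifs around the summits differed between the classes and, to a smaller degree, between the samples. In the 124348 top-ranked distal peaks of each sample, the TEAD motif was within 100 bases of the summit in 20.2, 20.7, 19.7 and 20.9% at P1 and in 23.0, 22.4 and 23.1% at P3. Every P3 sample lay above every P1 sample (means 20.4 ± 0.533 and 22.8 ± 0.348%, exact permutation p = 0.0286, 0.0531 after Benjamini-Hochberg adjustment over 13 motifs). The CTCF motif was in 3.53, 3.35, 3.57 and 3.48% at P1 and in 2.99, 2.77 and 3.01% at P3, all lower (exact permutation p = 0.0286, adjusted 0.0531). The RUNX motif TGTGGTT was higher at P3 in the same sense (means 9.78 and 10.3%), and the C/EBP motif TTGCNNAA (11.9 and 10.96%), the E-box CAGCTG (15.96 and 14.8%), the NF-Y motif CCAAT (24.96 and 23.8%) and the PU.1 motif GAGGAAG (7.68 and 7.49%) were lower, each with no overlap and an exact permutation p = 0.0286. No motif passed 0.05 after adjustment. The AP-1 motif TGACTCA had means of 29.5 and 27.8%, and its groups overlapped (exact permutation p = 0.0857). This outcome depended on the setting. With 50 bases on each side the AP-1 means were 24.2 and 21.8%, without overlap (exact permutation p = 0.0286, adjusted 0.0531). With all distal peaks they were 27.2 and 26.9% (exact permutation p = 0.429). In these 2 settings TEAD, CTCF, the E-box and NF-Y kept an exact permutation p = 0.0286. It was 0.0571 for C/EBP in both, for RUNX with 50 bases and for PU.1 with all distal peaks, where the PU.1 groups overlapped. Mean GC content of the windows was 47.1% at both passages.

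Across the classes of distal regions, given as a description, the TEAD motif was in 37.0% of the regions of higher rank, in 28.7% of gained peaks, in 22.9% of all shared regions, in 14.6% of the regions of lower rank and in 13.97% of lost peaks. Put the other way, 16.1% of distal shared regions with the motif were higher at P3 and 6.09% lower, against 8.20 and 10.6% of those without it. Matches were centred on the summit, with 8.83 per 100 regions of higher rank in the 25 bases after the summit and 1.53 in the 25 bases farthest from it. In the regions of lower rank the corresponding values were 2.34 and 1.34. The CTCF motif was in 3.996% of regions of lower rank, 3.48% of shared regions, 2.37% of lost peaks, 0.372% of regions of higher rank and 0.457% of gained peaks. The E-box was in 20.2% of lower and 11.5% of higher regions, and C/EBP in 15.1 and 9.53%. RUNX was in 7.88 and 14.3%. AP-1 motifs were in 31.9% of lower and 24.2% of higher regions, and in 15.4% of gained peaks, the lowest of the classes. In promoters the TEAD motif was in 22.7% of regions of higher rank, 5.79% of those of lower rank and 9.75% of all shared ones.

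**Figure D5:**
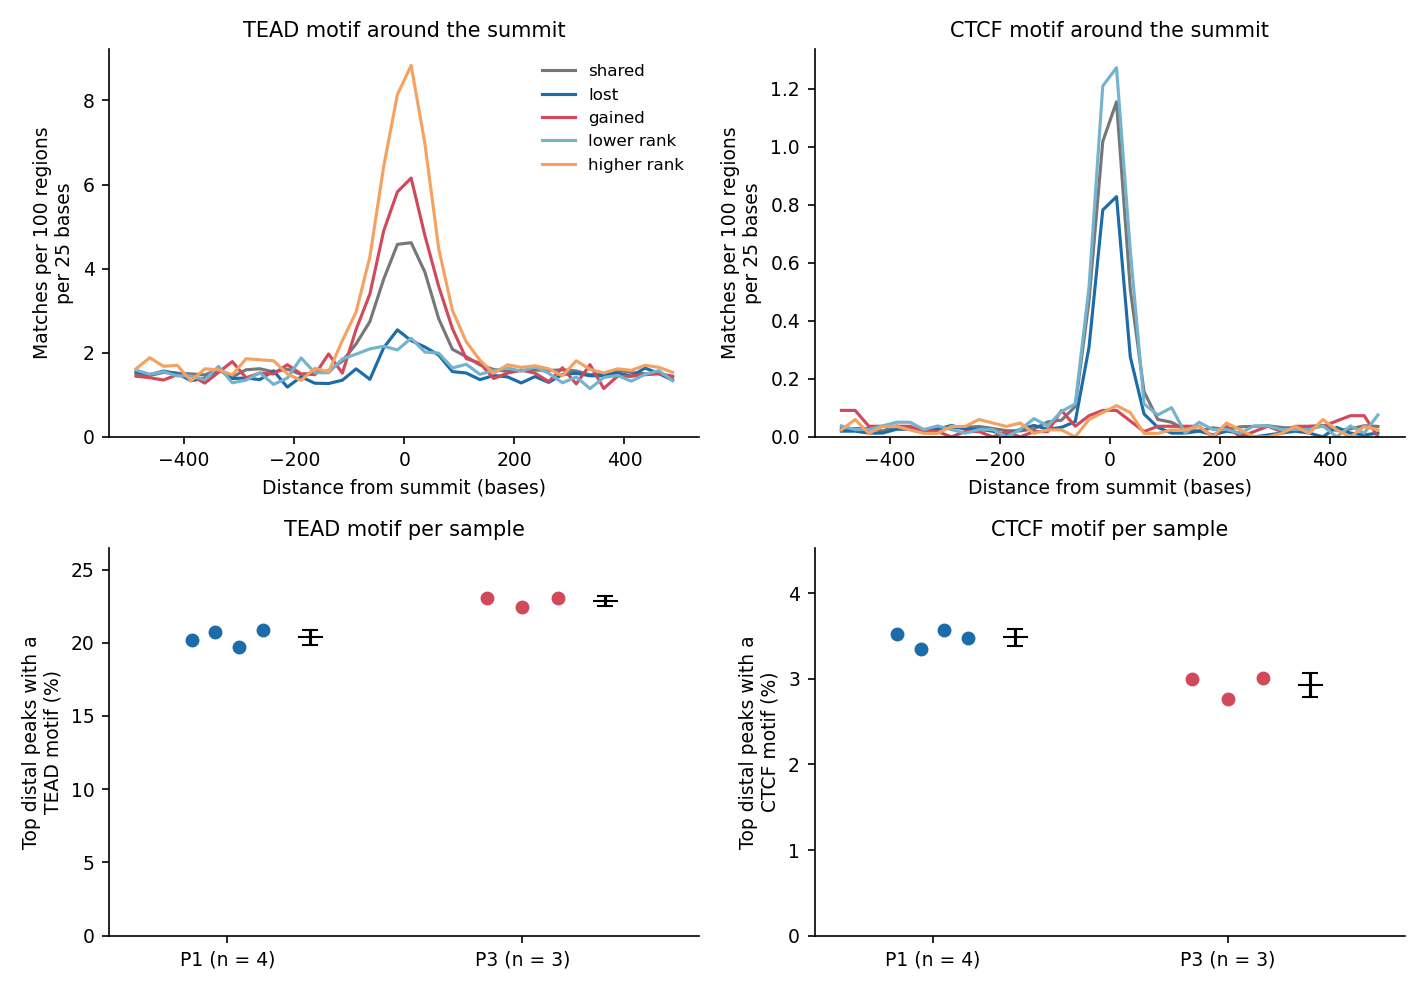
Matches of the TEAD (left) and CTCF (right) motifs per 100 distal regions in bins of 25 bases around the summit for each class (top), and percent of the top-ranked distal peaks of each sample with the motif within 100 bases of the summit, with bars for mean ± SD (bottom). TEAD matches peak at 8.83 in regions of higher rank and at 2.34 just after the summit in those of lower rank, while CTCF matches are nearly absent from gained peaks and regions of higher rank.

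The RNA-seq libraries, 4 at each passage, gave a readout that the peaks had not used. Of 13442 genes tested, 885 (6.58%) were lower at P3 and 322 (2.4%) higher, by edgeR with an adjusted p under 0.05 and more than 2-fold. Among 221 tested genes with a lost promoter peak, 33 (14.9%) were lower and 7 (3.17%) higher. Genes with a promoter region of lower rank had 70 of 424 lower (16.5%) and 14 higher (3.30%). Genes with a promoter region of higher rank had 12 of 349 lower (3.44%) and 22 higher (6.30%). Of 90 tested genes with a gained promoter peak, 10 (11.1%) were lower and 6 (6.67%) higher. For comparison, 5.56% of the genes with any promoter region were lower and 2.35% higher. Among the 499 tested genes with no promoter region in any of the 7 samples, 165 (33.1%) were lower. Median log2 fold changes were -0.06, -0.12, 0.01 and 0.01 in the lost, lower, higher and gained promoter groups.

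Markers of several other cell types had lower RNA at P3. All 15 macrophage markers tested were lower, with a median log2 fold change of -3.65, as were 12 of 12 keratinocyte markers (median -5.78), 10 of 11 skeletal muscle markers (-3.05) and 10 of 11 endothelial markers (-2.28), the other of which, Flt1, was higher. Of 8 tested Schwann cell and melanocyte markers 1 was lower and 2 were higher (median 0.55), and their sum was 156 to 173 CPM at P1 and 203 to 250 at P3. Summed over each list, macrophage markers had 392 to 584 CPM in the P1 libraries and 57.9 to 77.5 at P3, and keratinocyte markers 111 to 567 and 11.4 to 16.1. Muscle markers summed to 166 to 258 and 59.3 to 66.4 CPM, endothelial markers to 254 to 286 and 207 to 249, and adipocyte markers to 189 to 224 and 39.5 to 53.0. None of the tested markers was at 0 in every P3 library. Fibroblast markers summed to 30522 to 32200 CPM at P1 and 47159 to 53863 at P3. Of these 17 genes, however, 2 were lower and 2 higher, with a median log2 fold change of 0.075. The part of these cell types in the peak differences was not tested. In the peaks, 6 of 15 macrophage markers and 8 of 14 keratinocyte markers had a promoter region, against 17593 of all 24746 genes. None of those regions was lost, where 485 of all 17593 genes with a promoter region had a lost one. At that share, lists this short can hold none. Of the shared regions nearest to macrophage markers 6 of 59 were lower and none higher, and for keratinocyte markers 3 and 1 of 59. For muscle 2 of 39 were lower and 3 higher, for endothelium 4 and 12 of 93, and for adipocytes 5 and 10 of 59. Of all shared regions 8.72% were lower and 8.93% higher. Of the marker genes of muscle, the promoter of Actn2, an α-actinin of the sarcomere, fell by 33.7 points (limma adjusted p = 0.00657), and its RNA had a log2 fold change of -3.05. All 17 fibroblast markers had a promoter region. Of these genes, the Pdgfra promoter was at percentiles 52.6, 51.9, 51.3 and 52.0 at P1 and 74.4, 71.2 and 65.2 at P3, with RNA lower by a log2 fold change of -0.75 (SE 0.15). The promoter of Twist1, a mesenchymal transcription factor, fell by 17.7 points. A second peak near the start of Vim, the intermediate filament of mesenchyme, was lost (chr2:13574913-13575171, 19.97, 20.5, 18.8 and 22.9 times the background at P1), and Vim RNA had a log2 fold change of 0.28. A promoter peak of Col3a1 was gained in 2 of 3 P3 samples, and its RNA had a log2 fold change of 1.23 (SE 0.14).

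Of 11 contractile genes with a shared promoter region 2 had a higher and 1 a lower one, against 2.92 and 4.24% of all shared promoter regions. The promoter of Tagln, an actin-binding protein of smooth muscle, was at percentiles 70.2, 72.8, 68.8 and 76.5 at P1 and 90.1, 88.0 and 86.3 at P3 (16.04 points, SE 2.67, limma adjusted p = 0.0018), with an RNA log2 fold change of 1.03 (SE 0.15). The Cnn1 promoter, of calponin, rose by 28.3 points (SE 8.57, limma adjusted p = 0.0329) and its RNA by 2.53. Its samples came close to each other, since replicate 2 of P3, at 43.9, was just above the highest P1 sample, at 43.1. Lmod1, a nucleator of actin filaments, went the other way, with a promoter 31.3 points lower and an RNA log2 fold change of 0.69. Of the 45 shared regions nearest to a contractile gene, 7 (15.6%) were higher, against 8.93% of all shared regions, and 2 lower. Among 20 collagen and matrix genes with a shared promoter region, Postn and Thbs1 rose, by 19.7 and 13.99 points, with RNA log2 fold changes of 1.74 and 1.06, and Col6a3 fell by 30.7 points. A promoter peak of Col8a1, also missing from replicate 3 of P1, was lost while its RNA had a log2 fold change of 0.61 (SE 0.11). Of the 325 shared regions nearest to this list 30 were higher (9.23%).

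All 20 DNA replication genes and all 18 mitosis genes had a shared promoter region. Among them Rrm1, a subunit of ribonucleotide reductase, was the single one called, where 4.24% of all shared promoter regions were lower and 2.92% higher, with a change of -11.00 points (SE 2.60, limma adjusted p = 0.0104). The promoter of Mcm6, a subunit of the replicative helicase, was at 91.2, 91.1, 90.4 and 90.8 at P1 and 86.2, 82.5 and 80.8 at P3, a change of -7.72 points (adjusted p = 0.00537) that is under the 10 points needed for a call. At Cdkn2a, which encodes the cell-cycle inhibitors p16 and p19Arf, the promoter region at chr4:89281958-89282961 was at 22.7, 31.0, 27.7 and 33.2 at P1 and 64.2, 46.7 and 41.9 at P3. It rose by 22.3 points (SE 7.24, limma adjusted p = 0.0434), the groups did not overlap, and the RNA of the gene rose by a log2 fold change of 1.40 (SE 0.25, edgeR adjusted p = 0.000245). The other start site of the gene, at chr4:89294307-89295988, changed by -3.27 points (adjusted p = 0.262). The Cdkn1a promoter, of the inhibitor p21, changed by 5.61 points (adjusted p = 0.078), from a mean percentile of 88.2, where little room is left. Its pileup was 31.0, 42.2, 35.1 and 43.9 times the background at P1 and 58.1, 45.1 and 60.4 at P3. Cdkn1a RNA had a log2 fold change of 0.54 (SE 0.11, edgeR adjusted p = 0.000616), under the 2-fold needed for a call.

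The remaining lists are given as shares beside those of all shared regions, 8.72% lower and 8.93% higher. Of all 15280 genes with a shared promoter region, 662 had a lower one and 474 a higher one. Of all 17593 genes with a promoter region, 485 had a lost one and 154 a gained one. Of the 69 regions nearest to an interferon-stimulated gene 13 (18.8%) were lower and 2 higher. Of 17 such genes with a shared promoter region 4 had a lower one, Gbp2, Ifih1, Ifit1 and Mx2, by 12.3 to 26.7 points. None of the 18 tested genes of the list passed the RNA threshold, which asks for more than 2-fold. RNA log2 fold changes were 0.52 for Gbp2 (SE 0.19, edgeR adjusted p = 0.0369) and -0.47 to -0.13 for Ifih1, Ifit1 and Mx2. The Ifit1 promoter was at 56.7, 69.1, 59.6 and 56.5 at P1 and 37.0, 42.0 and 22.5 at P3, without overlap. Near genes of AP-1 subunits 11 of 85 regions (12.9%) were higher and 1 lower, with the promoter of Fosb 18.7 points higher. Near genes of TEAD factors and the Hippo pathway 14 of 112 (12.5%) were higher and 5 lower, and no promoter was called. Near Hox genes, which hold positional identity of fibroblasts, 4 of 61 (6.56%) were higher and none was lower, with a median change of 6.36 points. The promoters of Hoxb7 and Hoxb9 rose by 25.9 and 14.6 points, among 27 Hox genes with a shared promoter region. A promoter peak was lost at Hoxb7, Hoxc4 and Hoxd11, among 32 Hox genes with a promoter region. At Hoxb7 and Hoxc4 the lost peak was also missing from replicate 2 of P1. Regions near Wnt pathway genes were lower in 21 of 186 (11.3%) and higher in 20 (10.8%). A promoter peak of Dkk3 was lost, though it was also missing from replicate 3 of P1. The promoter of Sfrp1, a secreted Wnt antagonist, fell from 84.3, 82.4, 83.2 and 83.1 to 68.1, 62.7 and 68.8 (limma adjusted p = 0.0021), with an RNA log2 fold change of -0.83. In the list of NF-κB and inflammatory genes 6 of 131 regions were lower and 11 higher, with the Icam1 promoter 18.3 points lower. For the adipocyte marker Fabp4 the 3 promoter regions differed, with 1 higher, 1 lower and 1 gained, and its RNA had a log2 fold change of -3.10. The promoter of Lipe, a lipase of fat cells, fell by 20.4 points. At the macrophage marker Csf1r a narrow promoter peak was gained in 2 of 3 P3 samples while its RNA fell by 1.21 on the log2 scale. Near Schwann cell and melanocyte markers 3 of 46 regions were lower and 4 higher, and near lymphocyte markers none of 15 was lower and 1 higher.

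Some genes had many changed regions near them, and these genes were picked after their counts were seen. Ranking by count favours genes with many regions. Of all regions 6.47% were lost and 2.32% gained, and of shared regions 8.72% were lower and 8.93% higher. Of 121 regions nearest to Ntm, a neuronal adhesion molecule, 26 were lost and none gained, and 9 of its 25 shared regions were lower, while Ntm RNA had a log2 fold change of 0.91 (SE 0.19, edgeR adjusted p = 0.0013). For Robo2, a guidance receptor, 23 of 124 were lost, and Robo2 RNA had a log2 fold change of -1.12 (SE 0.25, edgeR adjusted p = 0.00163). Near Vav3, a signalling protein of the Vav family, 12 of 25 shared regions were lower and none higher, with RNA at -1.90 (SE 0.25). On the side of gains, 11 of 96 regions nearest to Pappa, a protease that releases insulin-like growth factors, were gained and 2 lost. Of its 34 shared regions, 7 were higher and 1 lower. Pappa RNA had a log2 fold change of 2.05 (SE 0.16, edgeR adjusted p = 1.25e-08). Near Foxp1, a forkhead factor, 8 of 120 regions were gained and none lost. Of its 44 shared regions, 8 were higher and none lower, and Foxp1 RNA had a log2 fold change of 0.79 (SE 0.18).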

How the data were processed

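According to the study's methods, ATAC-seq reads were aligned to mm10 with Bowtie2 (2.3.5.1 per the submitters' notes), duplicates were removed with Picard, and the authors called peaks in each sample with MACS2, whose version is not given for ATAC-seq in the sources used here. The deposited values are the fold enrichment at the summit, a ratio to the local background, and -log10 p and -log10 q values as the authors' caller gave them. The RNA-seq values are raw counts that the authors made with HISAT2 2.2.1 and HTSeq 0.12.4, at 13430229 to 15725823 per library. Of the summit pileups recovered from ratio and -log10 p, over 99.99% came out whole within 0.02. Start sites were those of the RefSeq annotation of GRCm38 (30213 positions of 24746 genes). Percentiles and log2 widths were tested with limma 3.58.1 and counts with edgeR 4.0.16 (filterByExpr, TMM, quasi-likelihood, all 16 libraries), both in R 4.3.3 with Benjamini-Hochberg adjustment, and single values per sample with exact permutation tests. Both fits were tested on simulated data. Sequences were read with pysam 0.24.0. DESeq2 1.42.0 and other thresholds, filters and scalings were alternatives. Counting ignored strand, so genes that overlap others have uncertain counts.

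The members and gene lists were chosen with earlier results of these data known. Named regions were taken from the 6 strongest lost and the 6 strongest gained with a peak in every replicate of 1 passage, the 6 largest falls and rises without overlap, and the same in promoters, leaving out sex chromosomes. Of each list, up to 4 members with lost, gained or called promoters and Cdkn2a, Cdkn1a and Mcm6 were named, and other names are stated as picked later. The printed sequences were chosen for their motifs and size of change. The methylation data were not used here.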

Additional observations from a re-analysis of the deposited data

Results flagged for a closer look

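A sample far from the other 3 of its group, by Dixon's ratio at the 95% level, was found in 6 of 102 groups of 4 samples, about the number that chance gives (about 1 in 20). At the Cngb3 promoter, replicate 3 of P1 was at percentile 71.1 and the others at 48.6 to 51.6. At the Tmco5 region, replicate 2 of P1 was at 8.48 and the others at 0.727 to 2.03, and at the Pxk promoter replicate 3 of P1 was at 0.251 and the others at 6.41 to 7.01. Replicate 4 of P1 was at 74.5 for the Thbs1 promoter, with the others at 68.9 to 69.7, and at 33.5 for the Lmod1 promoter, with the others at 46.7 to 47.6. Among the RNA-seq libraries, the keratinocyte markers of replicate 3 of P1 summed to 567 CPM and those of the others to 111 to 174. Groups of 3, as at P3, are too small for this test.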

How the results depend on the processing

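With equal numbers of top-ranked peaks, the covered length differed by -6.07 Mb, the median width by -35.5 bases, the promoter share by 0.433 points, and 8711 peaks were lost and 9286 gained. Without 1 replicate in turn, the difference in peak number ranged from -27270 to -20558, in covered length from -15.0 to -11.4 Mb, in median width from -9.75 (without P3 replicate 2) to 43.8 bases and in promoter share from 1.26 to 1.54 points, where no p could pass 0.05. Lost peaks then ranged from 19308 to 23872, gained from 2825 to 6976, regions of lower rank from 5773 to 7348, of higher rank from 6174 to 7522, narrower ones from 216 to 2537 and wider ones from 44 to 265. With a -log10 q of at least 5 in the passage with the peak 7789 were lost and 1368 gained, and with that limit in every sample 3137 were gained. A peak in all replicates gave 7662 and 1702, and an overlap of at least 50% 23935 and 9302. Percentiles among all peaks gave 13303 lower and 3704 higher of the 98342 shared regions. With absent peaks at percentile 0, 23929 of 166165 tested regions were lower and 7304 higher. Of the 47015 regions with a mean percentile above 50, 4200 were lower and 3330 higher. For widths, a -log10 q of at least 5 gave 660 narrower and 184 wider of 79325 tested regions, and centring 474 wider ones. Of the motif shares, those of MEF2 and E2F differed by nearly 0 and changed sign, MEF2 to 0.0039 points and E2F to -0.00027 points with 50 bases on each side, and E2F ranged from -0.011 to 0.015 points without 1 replicate (-0.0046 and -0.0013 without P1 replicates 1 and 3). The cause was not tested for any of these. The 24 named shared regions kept direction and call in all 365 values computed, and the 24 named lost or gained regions kept theirs in 48. These regions were chosen from the same samples for the largest changes or the strongest peaks. This outcome was thus nearly fixed by the choice and says little about other regions. RNA counts stayed within 1.5 times under every alternative, from 852 to 1145 lower and from 285 to 360 higher.

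The replicate block gave 7266 regions of lower and 7278 of higher rank, 0 narrower and 0 wider regions by limma (14010 at an unadjusted p under 0.05), and 894 lower and 329 higher genes. Correlations of same-numbered samples were -0.0067 to 0.035 for percentiles and -0.019 to 0.0068 for widths, so the numbers were not taken as pairs. For RNA they were 0.078 to 0.27, and every P1 library correlated best with its own number, a hint of pairing from the data that the labels do not give. Alternatives chosen after seeing the data were those on recovered pileups and the motif shares without 1 replicate. A scaled -log10 p of at least 5 in the passage with the peak gave 4709 lost and 1987 gained peaks. Depth limits all calls of absence, since a weak peak in a shallow sample can miss the caller's threshold, and regions were not tested one by one for presence because 4 against 3 samples cannot pass an adjusted test.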
